A study of Mus musculus with 8 samples.

Results

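The genes Dusp1, Dusp2, Dusp4, Dusp5, Dusp6, Dusp8, Dusp10 and Dusp16 encode dual specificity phosphatases of the MAP kinase phosphatase class, and were examined for NFATc2 binding and for H3K4me3 in a murine dendritic cell (DC) line stimulated through dectin-1. They were chosen by family, with earlier results of these data known, and were 8 of the 22350 protein-coding genes of the annotation. For each gene, NFATc2 summits within 100 kb of any annotated transcription start site (TSS) were collected, together with H3K4me3 peaks that overlapped the gene or lay within 1 kb of a TSS.

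MAP kinase phosphatases remove the phosphate from both the threonine and the tyrosine of the activation loop of a MAP kinase and so switch it off. Many of these genes are early targets of the kinases that their products inactivate, which makes them classical negative feedback regulators. In myeloid cells some of them limit the cytokine output that follows pattern recognition receptors. Dusp1, Dusp2, Dusp4 and Dusp5 encode inducible nuclear enzymes, Dusp6 encodes a cytoplasmic phosphatase of ERK, and Dusp8, Dusp10 and Dusp16 encode phosphatases that act mainly on JNK and p38. H3K4me3 is the trimethylation of lysine 4 of histone H3, a mark of active promoters, and NFATc2 (named NFAT1 in the sample labels) is a transcription factor that enters the nucleus after the phosphatase calcineurin removes its phosphates.

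All material came from D1, a long-term splenic DC line from C57BL/6 mice. NFATc2 was mapped with an antibody to the V5 tag in D1 cells that stably expressed a C-terminally tagged NFATc2 beside the endogenous protein, with GFP from the same construct marking the transgenic cells, after 30 min of curdlan at 10 μg/ml, curdlan being a beta-glucan ligand of dectin-1. H3K4me3 was mapped in D1 cells that were non-treated (NT), in cells given curdlan at 10 μg/ml for 2 h and in cells given curdlan for 2 h with the calcineurin inhibitor FK506, whose dose in these libraries was not given in the sources used here. Each of the 4 conditions had 1 ChIP library and 1 input library. NFATc2 binding without curdlan, or with FK506, was not analysed here.

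The ChIP libraries held between 14377535 and 21289349 tags, and the share of tags inside peaks was 5.58% for NFATc2 and between 51.3% and 57.9% for H3K4me3. With 1 library per condition there was no replicate, so no test between conditions was possible, and all intervals below are 95% intervals that cover counting error only. As a check of the cell type, all 13 DC and myeloid markers had an H3K4me3 peak in each of the 3 lists, against 2 of 5 T-cell markers (Cd3d and Lck), 2 of 3 B-cell markers (Cd79a and Pax5), 1 of 3 epithelial markers (Cdh1) and 0 of 5 fibroblast markers, the fibroblast genes having no peak in any list. Summed over each marker list, H3K4me3 lay between 1732 and 1800.0 tags per 1000000 ChIP tags (RPM) in the 3 libraries for DC and myeloid genes, between 30.5 and 34.2 for T-cell, 65.6 and 83.1 for B-cell and 105.0 and 119 for epithelial genes, with Cd3e, Cd3g, Cd8a, Ms4a1, Epcam and Krt8 without a peak. The lists differ in length, so these sums do not compare levels per gene. In NT, single DC and myeloid genes lay between 17.8 (Flt3) and 313 RPM (H2-Aa), whereas Cdh1 held 119 and Cd79a 71.0 RPM. The part of the T-cell, B-cell and epithelial marker genes in the results below was not tested.

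NFATc2 sites lay around every one of the phosphatase genes, mostly at a distance and upstream. Each of the 8 genes had at least 1 summit in the 100 kb window, as did 55.4% of all protein-coding genes, and 7 of the 8 still had one at p of 1e-10 or less, Dusp10 losing its only site. Within 30 kb the count was 5 of 8 beside 30.2% of all genes, within 10 kb it was 3 of 8 (Dusp1, Dusp6 and Dusp16) beside 16.3%, and within 1 kb it was 1 of 8 (Dusp16) beside 5.29%. A gene of the family had a median of 2.5 summits within 100 kb, against 1 for all protein-coding genes, and the nearest summit was at a median of 24.4 kb against 79.4 kb. Within 100 kb a summit was also found at 11 of 14 other dual specificity phosphatase genes and 8 of 9 MAP kinase genes. It was found at 8 of 12 other negative regulators and 1 of 2 remaining MAP kinase phosphatases, lists that are described below. Within 10 kb the counts of these lists were 5, 2, 4 and 0, in that order. Sites in these windows were thus not particular to the 8 genes. Of the 23 summits of the 8 genes, 18 were upstream and 5 downstream of the TSS they were assigned to, and 16 were intergenic, 5 intronic and 2 exonic. The 18 include a site 312 bp upstream of an inner TSS of Dusp16, which lies inside that gene. The same shares over all NFATc2 summits were not computed, so these counts are not set against NFATc2 sites in general. The nearest TSS of any gene belonged to the phosphatase gene itself for 12 of the 23 summits, so for the other 11 the assignment rests on distance to a gene that is not the closest one.

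The windows below show some of the sites that were nearest to, or had the most tags or the highest fold enrichment around, Dusp1, Dusp2, Dusp5 and Dusp16. Every window shown holds a marked motif, whereas 10 of the 23 sites held none of the motifs searched. Among those without a motif and not shown are the Dusp16 sites with the highest fold enrichment (3.89 kb upstream) and the most tags (57.7 kb downstream). Each is 201 bp long, centred on the summit, on the plus strand of mm9, with capitals marking GGAAAA (the core of the NFAT motif) or TGANTCA (the AP-1 motif) on either strand, so that TTTTCC is GGAAAA on the minus strand. The first is the site 5.85 kb upstream of Dusp1 (chr17:26651214-26651414, intergenic), in which the centre of a GGAAAA lay 4 bp from the summit. The next pair are the sites 21.2 kb (chr2:127140578-127140778) and 35.2 kb (chr2:127126598-127126798) upstream of Dusp2, both intergenic. They are followed by the sites 64.1 kb (chr19:53539381-53539581, intergenic) and 79.7 kb (chr19:53523788-53523988, in an exon of 5830416P10Rik) upstream of Dusp5, and by the site inside an intron of Dusp16 (chr6:134741564-134741764).
Dusp1 at 5.85 kb: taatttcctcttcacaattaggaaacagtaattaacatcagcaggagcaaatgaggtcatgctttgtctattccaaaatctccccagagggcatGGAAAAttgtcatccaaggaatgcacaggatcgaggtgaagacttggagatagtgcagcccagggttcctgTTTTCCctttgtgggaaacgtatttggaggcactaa
Dusp2 at 21.2 kb: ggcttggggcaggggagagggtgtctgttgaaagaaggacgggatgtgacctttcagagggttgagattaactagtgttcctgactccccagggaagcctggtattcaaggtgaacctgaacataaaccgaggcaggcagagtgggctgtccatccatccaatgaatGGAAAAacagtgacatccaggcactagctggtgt
Dusp2 at 35.2 kb: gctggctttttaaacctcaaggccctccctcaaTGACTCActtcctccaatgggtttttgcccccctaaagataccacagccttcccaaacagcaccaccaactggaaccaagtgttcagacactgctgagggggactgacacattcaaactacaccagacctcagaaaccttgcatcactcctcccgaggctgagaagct
Dusp5 at 64.1 kb: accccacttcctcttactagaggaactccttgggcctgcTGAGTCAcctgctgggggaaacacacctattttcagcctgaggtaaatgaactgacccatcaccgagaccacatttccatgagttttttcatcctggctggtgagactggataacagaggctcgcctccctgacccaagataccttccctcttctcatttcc
Dusp5 at 79.7 kb: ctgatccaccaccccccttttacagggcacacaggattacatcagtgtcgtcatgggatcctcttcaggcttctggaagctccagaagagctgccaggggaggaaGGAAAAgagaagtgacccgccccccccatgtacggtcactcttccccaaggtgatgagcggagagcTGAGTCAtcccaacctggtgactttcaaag
Dusp16 intron: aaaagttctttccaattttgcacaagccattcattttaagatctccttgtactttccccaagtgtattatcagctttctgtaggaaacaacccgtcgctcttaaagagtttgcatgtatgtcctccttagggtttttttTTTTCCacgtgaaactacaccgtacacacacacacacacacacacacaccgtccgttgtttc

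GGAAAA was found within 100 bp of 10 of the 23 summits, beside 45.6% of all 9438 NFATc2 summits and 18.0% of flanking windows of the same length. TGANTCA was found at 4 of the 23, beside 21.8% of all summits and 6.15% of flanks, and TGACGTCA (the cyclic AMP response element) at 0 of the 23, beside 0.498% of all summits. Both GGAAAA and TGANTCA were present at 1 of the 23, the site 79.7 kb upstream of Dusp5, and 10 of the 23 had none of the 3 motifs. The sites of the phosphatase genes thus carried the NFAT core about as often as NFATc2 sites in general.

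Dusp1, which encodes an inducible nuclear phosphatase of p38 and JNK (chr17:26642535-26645464, minus strand), had 3 sites. The summits lay 5.85 kb upstream with 67 tags, 9.90 kb downstream of an internal TSS with 82 tags, and 22.5 kb upstream with 106 tags. The last of these had the lowest p-value of the 3 in the peak list (1.2e-13), and its nearest TSS was that of Gm8225. All 3 were intergenic.

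Dusp2, an inducible nuclear phosphatase of immune cells (chr2:127161895-127164112, plus strand), had 3 sites, all upstream and intergenic. Summits lay at 21.2 kb with 27 tags, at 34.0 kb with 23 tags and at 35.2 kb with 130 tags. The site at 35.2 kb was the strongest by fold enrichment over the input (33.5) of all 23 sites and lay 8851 bp from the TSS of Stard7, the nearest gene. The site nearest to Dusp2 was among the weaker ones of the list, with more tags than 8.15% of all NFATc2 peaks.

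Dusp4 (chr8:35870351-35882948, plus strand) encodes a further nuclear enzyme and had 1 site, 27.7 kb upstream, with 37 tags. Dusp5, a nuclear phosphatase of ERK (chr19:53603599-53616921, plus strand), had the most sites of the family, 6, all between 49.3 kb and 79.7 kb upstream, and 96.1% of protein-coding genes had fewer within 100 kb. These 6 peaks held 894 tags in all. The site at 64.1 kb had the most tags, 324, more than 98.6% of all NFATc2 peaks, and a fold enrichment of 20.4, and the one at 79.7 kb had 233 tags and the higher fold enrichment, 28.4. The TSS nearest to each of the 6 summits was that of 5830416P10Rik or 4833407H14Rik, and the summit at 64.1 kb lay 195 bp from the TSS of 5830416P10Rik.

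Dusp6 (chr10:98725865-98730122, plus strand) had 2 sites, for both of which its TSS was the nearest. One summit lay 5.63 kb downstream of the TSS, past the end of the gene, with 46 tags, and the other lay 20.8 kb upstream with 78 tags. Dusp8 (chr7:149265395-149281748, minus strand) had 1 site 47.8 kb upstream with 32 tags and 1 site 49.3 kb downstream of its innermost TSS with 119 tags, in an intron of Mob2. Dusp10 (chr1:185837181-185899515, plus strand) had 1 site, 33.4 kb upstream, with 30 tags.

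Dusp16, a phosphatase of JNK (chr6:134665488-134742643, minus strand), had 5 sites and the nearest one of the family. Its first summit lay in an intron of the gene, 312 bp upstream of the TSS of a retained-intron transcript, with 60 tags. The others lay 3.89 kb upstream with 77 tags, 8.27 kb downstream in an intron with 46 tags, 11.4 kb upstream with 105 tags, and 57.7 kb downstream of an inner TSS, in an intron of Loh12cr1, with 139 tags. The TSS nearest to each of the 5 was one of Dusp16.

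**Figure D1:**
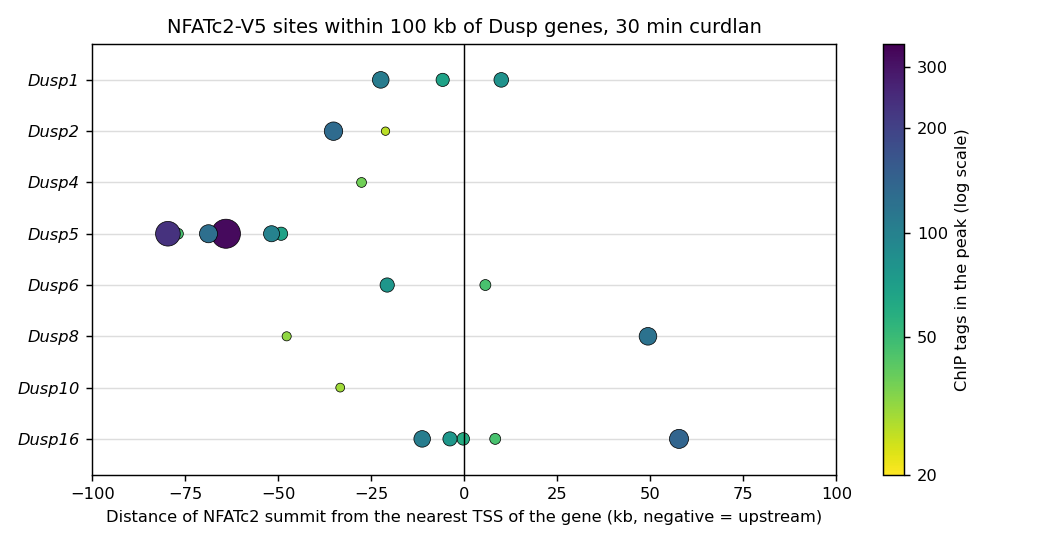
NFATc2-V5 summits after 30 min of curdlan at their distance in kb from the nearest TSS of each gene (horizontal axis, negative for upstream), 1 row per gene, with circle area and colour giving the count of tags in the peak. The 6 sites of Dusp5 form a group between 49.3 and 79.7 kb upstream, whereas the summits within 10 kb belong to Dusp1, Dusp6 and Dusp16.

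Most of these sites were away from H3K4me3. The summit lay in no H3K4me3 peak of any list for 18 of the 23. The same share over all NFATc2 summits was not computed, so whether these genes differ from others in this was not tested. The exceptions were the intronic site of Dusp16, inside the promoter peak in all 3 lists, the site 57.7 kb downstream of Dusp16, in a peak of 8.40 RPM in NT and 5.60 RPM with FK506 and in none with curdlan, and 3 sites near Dusp5 and Dusp6. At the Dusp5 site with the most tags (64.1 kb upstream) there was no H3K4me3 peak in NT. That summit lay in a peak of 6.34 kb and 48.0 RPM with curdlan and in one of 6.41 kb and 49.4 RPM with curdlan and FK506, whereas the NT peak at the same place was 2.39 kb long with 26.2 RPM and reached only the site at 68.8 kb. Downstream of Dusp6, the summit at 5.63 kb lay in a small separate NT peak of 3.66 RPM, in no peak with curdlan, and inside the promoter peak with FK506.

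Every phosphatase gene had an H3K4me3 peak in each of the 3 lists, where 51.5%, 51.2% and 51.1% of all protein-coding genes had one in NT, curdlan and curdlan with FK506, and 50.1% had one in all 3. For each gene the tags of its peaks were summed and scaled to 1000000 ChIP tags of the library (RPM), and the MACS fold enrichment was that of its highest peak. Between conditions the log2 ratio of RPM was centred on its median over all protein-coding genes with a peak in both lists, which was -0.13 for curdlan over NT (11298 genes) and -0.04 for curdlan with FK506 over curdlan (11277 genes), and a gene was counted as higher or lower past 1.5-fold. Both comparisons use the same curdlan library, so their ratios are not independent.

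After 2 h of curdlan, H3K4me3 was higher at Dusp2, Dusp8, Dusp1 and Dusp5, although the sign of the ratio turned for Dusp1 on MACS fold enrichment and for Dusp5 per kb of peak, and it was past 1.5-fold lower at none of the 8 genes. Those 4 of 8 compare with 3.71% of all genes higher and the 0 of 8 with 1.80% lower. The median centred log2 ratio of the 8 was 0.53, where all genes are at 0 by construction. Dusp2 had the largest change in RPM, 11.5-fold or 3.52 on the centred log2 scale, and 2 of 11298 genes had a larger ratio, whereas on MACS fold enrichment its centred log2 ratio was 0.77. With FK506 added, none of the 8 passed 1.5-fold in either direction, beside 0.568% of all genes higher and 1.35% lower, and their median was 0.15.

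The H3K4me3 signal at Dusp2 was 4.08 RPM in NT (68 tags, interval 3.17 to 5.17), 42.7 RPM with curdlan (908 tags, 39.9 to 45.5) and 32.6 RPM with curdlan and FK506 (634 tags, 30.1 to 35.2). The NT value was thus the low one and the intervals of the 3 libraries did not overlap. The centred log2 ratio was 3.52 (interval 3.16 to 3.90) for curdlan over NT and -0.35 (-0.49 to -0.20) for FK506 over curdlan, a 1.27-fold decrease that 3.66% of genes exceeded. The peak also grew from 1.42 kb in NT to 3.73 kb with curdlan and 4.96 kb with FK506. In NT it ended 558 bp downstream of the first TSS, and in both stimulated libraries it ran past the end of the gene and covered the TSS of the neighbouring Astl. The ratio for curdlan over NT was 2.17 per kb of peak and 0.77 on fold enrichment (24.5 in NT, 69.6 with curdlan), both centred log2 values and both past 1.5-fold. Per kb, the ratio for FK506 over curdlan was -0.78, past 1.5-fold, the FK506 peak holding fewer RPM over a greater length.

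At Dusp1 the values were 38.8 RPM in NT (647 tags, 35.9 to 41.9), 61.4 with curdlan (1306 tags, 58.1 to 64.8) and 71.4 with curdlan and FK506 (1389 tags, 67.6 to 75.2). NT was the lowest library and FK506 the highest, with no overlap of the intervals. The centred log2 ratio was 0.79 (0.66 to 0.93) for curdlan over NT, or 1.73-fold, and 0.26 (0.15 to 0.37) for FK506 over curdlan. The peak covered the whole gene with curdlan and reached from 3.23 kb in NT to 4.52 kb and 4.50 kb in the stimulated libraries. The fold enrichment over input at the highest point of the peak was 42.05 in NT and 67.5 with curdlan. Its centred log2 ratio was instead -0.05, since the median over all genes, 0.73, was taken off. Per kb of peak the centred log2 ratio for curdlan over NT was 0.35, within 1.5-fold. An increase past 1.5-fold at Dusp1 was thus seen for the sum of tags over the peak, and not on these other measures.

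The upstream sequences of the 2 nuclear phosphatase genes with the larger ratios, Dusp2 and Dusp1, are shown as the 250 bp before the outermost TSS, in the direction of the gene (mm9, chr17:26645465-26645714 on the minus strand for Dusp1 and chr2:127161645-127161894 on the plus strand for Dusp2). Capitals mark TGACGTCA, searched like GGAAAA and TGANTCA on both strands.
Dusp1 promoter: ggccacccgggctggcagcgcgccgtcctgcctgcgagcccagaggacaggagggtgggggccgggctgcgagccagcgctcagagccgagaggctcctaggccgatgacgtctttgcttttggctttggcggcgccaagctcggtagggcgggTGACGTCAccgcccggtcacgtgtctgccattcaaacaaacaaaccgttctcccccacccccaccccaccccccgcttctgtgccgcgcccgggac
Dusp2 promoter: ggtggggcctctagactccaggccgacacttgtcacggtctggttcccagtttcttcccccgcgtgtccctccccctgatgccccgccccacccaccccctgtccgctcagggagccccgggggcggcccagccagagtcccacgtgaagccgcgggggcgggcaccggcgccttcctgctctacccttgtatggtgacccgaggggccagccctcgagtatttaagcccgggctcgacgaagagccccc
TGACGTCA was present 89 bp upstream of the TSS of Dusp1 and in the window of none of the other 7 genes, where 1.91% of the windows of all protein-coding genes held it. GGAAAA was found in 0 of the 8 windows, beside 20.7% of all genes, and TGANTCA in 0 of 8, beside 6.00%.

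Dusp5 carried a long H3K4me3 domain, above all in the stimulated libraries. It held 167 RPM in NT (2789 tags, 161 to 174), 242 with curdlan (5144 tags, 235 to 248) and 258 with curdlan and FK506 (5027 tags, 251 to 266), so that both stimulated libraries lay above NT. The centred log2 ratio was 0.66 (0.60 to 0.73) for curdlan over NT, 1.58-fold (1.44-fold without centring, which is under the 1.5-fold limit), and 0.14 (0.08 to 0.20) for FK506 over curdlan. The domain extended into the gene, from 6.81 kb in NT to 11.97 kb with curdlan and 11.87 kb with FK506. The curdlan peak was longer than 99.9% of the peaks of its list, and the longer of the NT peaks, 5.10 kb, than 93.8% of its own. It was called as 2 adjoining peaks in NT and with FK506 and as 1 with curdlan. Per kb of peak the signal was 24.6 RPM in NT and 20.2 RPM with curdlan, a centred log2 ratio of -0.10. The sum of tags thus rose with the length, without a rise in tags per kb. At the highest point the fold enrichment was 40.1 in NT and 86.3 with curdlan, a centred log2 ratio of 0.37. The lists give a total per peak, so where in the domain the added tags lay was not tested.

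Dusp4 had few tags in each library, with 2.94 RPM in NT (49 tags, 2.18 to 3.89), 2.54 with curdlan (54 tags, 1.91 to 3.31) and 3.08 with curdlan and FK506 (60 tags, 2.35 to 3.97). These intervals overlapped one another. The centred log2 ratios were -0.08 (-0.67 to 0.51) and 0.33 (-0.23 to 0.88), and for curdlan over NT the interval on the linear scale ran from 0.631-fold to 1.42-fold, so changes inside that range were not detectable at this depth. On fold enrichment at the highest point, which was 17.3 in NT and 15.2 with curdlan, the centred log2 ratio was -0.92.

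Dusp6, the cytoplasmic ERK phosphatase, went the other way from Dusp2 and Dusp1. Its peak held 198 RPM in NT (3303 tags, 192 to 205), 137 with curdlan (2911 tags, 132 to 142) and 135 with curdlan and FK506 (2624 tags, 130 to 140), the NT library being the high one. The centred log2 ratio was -0.40 (-0.48 to -0.33) for curdlan over NT, within 1.5-fold but with 4.99% of genes below it, and 0.02 (-0.05 to 0.10) for FK506 over curdlan. The peak covered the whole gene in all 3 libraries, with a length of 8.06, 7.56 and 9.04 kb.

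Among the phosphatases of JNK and p38, Dusp8 had 13.6 RPM in NT (226 tags, 11.9 to 15.5), 27.1 with curdlan (576 tags, 24.9 to 29.4) and 29.2 with curdlan and FK506 (568 tags, 26.8 to 31.7). Its centred log2 ratio for curdlan over NT was 1.13 (0.91 to 1.36), or 2.19-fold, a ratio that ranked 109 of 11298 from the top, and it was 0.15 (-0.02 to 0.32) for FK506 over curdlan. The mark formed 2 peaks on either side of the second TSS in every library. The inner peak went from 7.86 to 19.9 RPM between NT and curdlan and the outer one from 5.70 to 7.14 RPM, so most of the added tags lay in the inner peak.

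At Dusp10 the mark was found at the inner promoter, well inside the gene, and not at the outermost TSS. In all 3 libraries this promoter peak also covered the TSS of another gene, 1700056E22Rik. Its tags therefore cannot be assigned to Dusp10 alone. The peaks counted for Dusp10 held 15.3 RPM in NT (255 tags, 13.5 to 17.3), 11.1 with curdlan (237 tags, 9.76 to 12.6) and 12.2 with curdlan and FK506 (238 tags, 10.7 to 13.9). The centred log2 ratio was -0.33 (-0.59 to -0.07) for curdlan over NT and 0.18 (-0.09 to 0.45) for FK506 over curdlan. These sums include a small second peak in an intron, called with 62 tags in NT and 48 tags with FK506 and not called with curdlan. With the promoter peak alone the ratios were 0.07 and -0.14, and per kb of peak they were 0.44 and -0.49, so the direction at Dusp10 turned with the measure.

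Dusp16 held 103 RPM in NT (1722 tags, 98.5 to 108), 124 with curdlan (2635 tags, 119 to 129) and 113 with curdlan and FK506 (2205 tags, 109 to 118). Curdlan was thus the highest of the 3 libraries by a small margin. The centred log2 ratio was 0.39 (0.31 to 0.48), or 1.31-fold and higher than 92.6% of genes, and -0.08 (-0.17 to -0.001) for FK506 over curdlan. On fold enrichment its centred log2 ratio for curdlan over NT was 0.73, which is past 1.5-fold and above the 0.59 of Dusp8, so whether Dusp16 counted as higher depended on the measure.

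**Figure D2:**
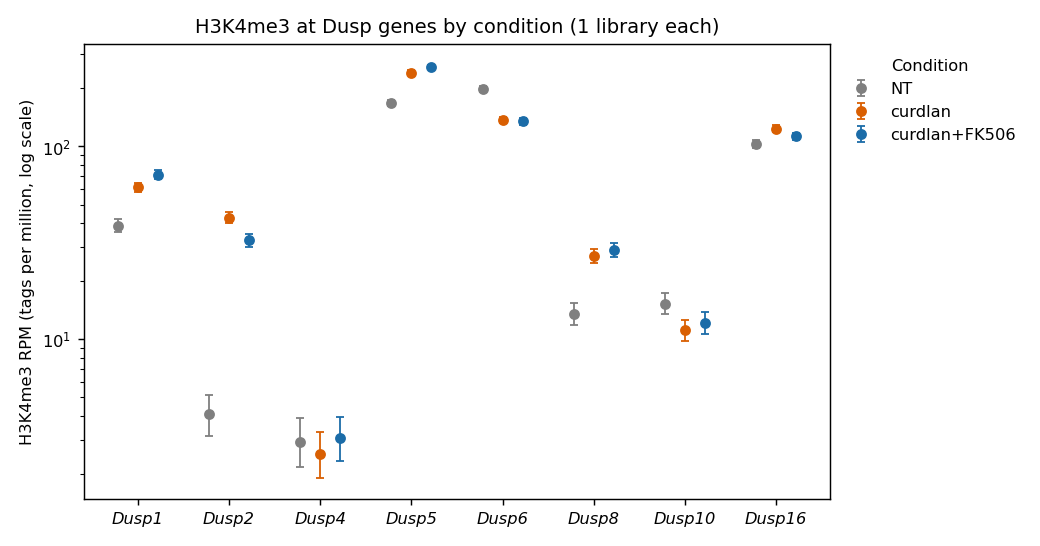
H3K4me3 RPM (vertical axis, log scale) at the 8 genes in the NT, curdlan and curdlan with FK506 libraries, with 95% exact Poisson intervals as bars (counting error only). Dusp2 goes from 4.08 in NT to 42.7 with curdlan and 32.6 with FK506, Dusp6 is highest in NT at 198, and Dusp4 stays between 2.54 and 3.08.

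**Figure D3:**
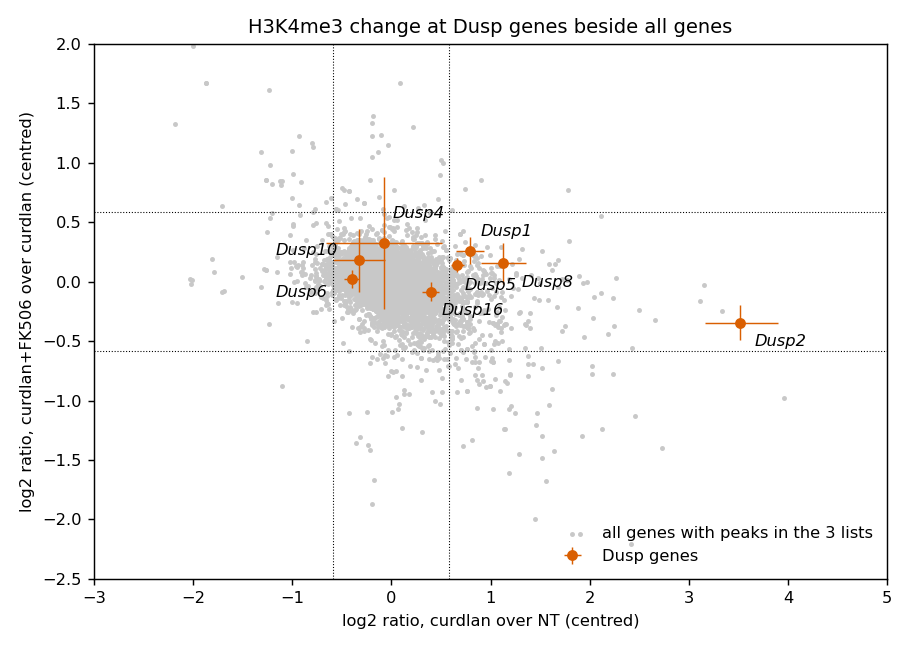
Centred log2 ratio of H3K4me3 RPM for curdlan over NT (horizontal) and curdlan with FK506 over curdlan (vertical), for the 11198 protein-coding genes with a peak in all 3 lists (grey, 4 of them outside the axes) and the 8 phosphatase genes (orange, with 95% counting intervals). Dotted lines mark 1.5-fold; Dusp2 lies at 3.52 and -0.35, and the 2 axes share the curdlan library.

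The mark differed between the genes in extent as well as in amount. Peak length went past 1.5-fold longer with curdlan at 2 of the 8 genes, Dusp2 (2.63 times) and Dusp5 (1.76 times), beside 3.28% of all genes, and past 1.5-fold shorter at 1, Dusp10 (0.608 times), beside 1.59%. With FK506 over curdlan, 1 of the 8 was longer (Dusp10, 1.56 times, beside 1.19%) and 0 were shorter (beside 2.30%). Both calls at Dusp10 came from the small intronic peak and were absent when peaks at a TSS alone were used. The median length ratio of the 8 genes was 1.28 for curdlan over NT, where it was 1.03 over all genes, and 1.04 for FK506 over curdlan, where it was 0.980.

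**Figure D4:**
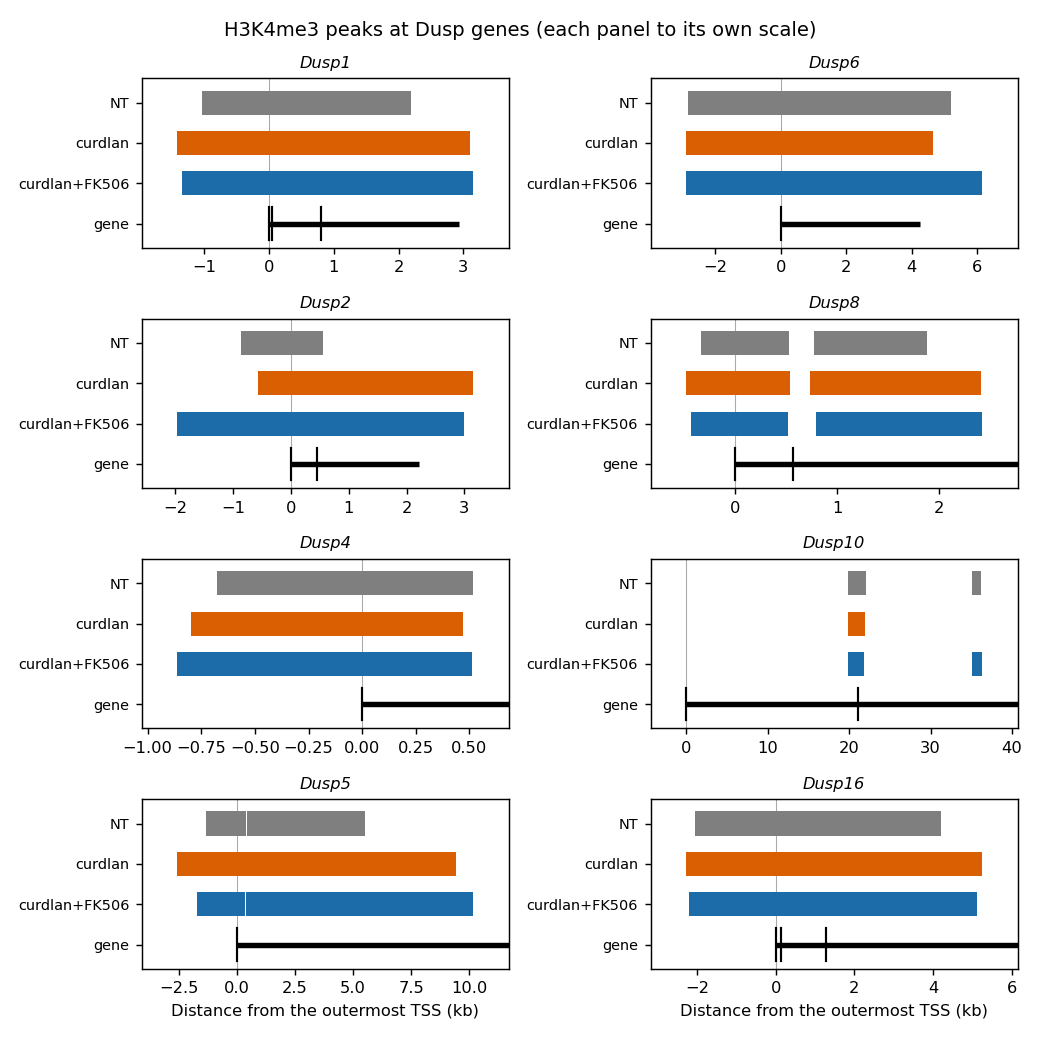
Extent of the H3K4me3 peaks at each gene in the 3 libraries, as distance in kb from the outermost TSS in the direction of transcription, each panel to its own scale; the black bar is the gene and ticks mark annotated TSSs. The Dusp2 peak grows from 1.42 kb in NT to 3.73 and 4.96 kb, and the Dusp5 domain from 6.81 kb to 11.97 and 11.87 kb. At Dusp10 the promoter peak lies at the inner TSS and also covers the TSS of 1700056E22Rik.

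Levels were compared between genes as RPM per kb of peak. In NT the order was Dusp6 (24.6), Dusp5 (24.6), Dusp16 (16.6), Dusp1 (12.0), Dusp8 (6.87), Dusp10 (4.56), Dusp2 (2.88) and Dusp4 (2.46), in which Dusp6 and Dusp5 and likewise Dusp2 and Dusp4 did not differ beyond their counting intervals. With curdlan the order was Dusp5 (20.2), Dusp6 (18.1), Dusp16 (16.5), Dusp1 (13.6), Dusp2 (11.4), Dusp8 (10.0), Dusp10 (5.47) and Dusp4 (2.00), the intervals of Dusp2 and Dusp8 overlapping. Dusp2 had thus passed Dusp10. With FK506 the order was Dusp5 (21.8), Dusp1 (15.9), Dusp16 (15.5), Dusp6 (14.9), Dusp8 (11.3), Dusp2 (6.57), Dusp10 (3.84) and Dusp4 (2.25), the intervals of Dusp1, Dusp16 and Dusp6 overlapping from one neighbour to the next.

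The genes whose H3K4me3 ratios were most like those of Dusp2, by Euclidean distance over its 2 centred log2 ratios among 11197 genes and 3 libraries, were Ifitm2 (distance 0.21), Csrnp1 (0.45) and Cd83 (0.48). Ifitm2 had 2.22 RPM in NT, 20.4 with curdlan and 16.7 with FK506. Csrnp1 had 22.0, 173 and 150.2 RPM, and Cd83, a surface marker of mature DCs, had 16.4, 133 and 127 RPM.

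Other genes of the pathway were counted in the same way. Of the remaining MAP kinase phosphatases, Dusp7 and Dusp9, only Dusp7 had a peak, and it passed 1.5-fold in neither comparison. Among 14 atypical and other dual specificity phosphatase genes, 9 had a peak, with a median centred log2 ratio of 0.12 for curdlan over NT and 0.02 for FK506 over curdlan, and 1 was called. That gene was Dusp14, with 20.5 RPM in NT, 41.2 with curdlan and 16.9 with FK506 (centred log2 ratios 1.14 and -1.24) and a site of NFATc2 634 bp from a TSS. Dusp13 had a summit at 588 bp and values of 49.4, 55.6 and 52.8 RPM. Among 12 other negative regulators of MAP kinase signalling (Sprouty and Spred proteins and non-DUSP phosphatases), 9 had a peak, 0 passed 1.5-fold in any direction and the medians were 0.05 and 0.01. Summits within 1 kb were found there at Spred2 (79 bp), Spred3 (107 bp) and Ppm1d (579 bp).

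Of the 9 MAP kinase genes, the substrates of these phosphatases, 8 had a peak in NT and 7 in each stimulated library, with medians of 0.01 and -0.10. Mapk11, which encodes an isoform of p38, was the one gene past 1.5-fold, with 7.50 RPM in NT, 21.3 with curdlan and 7.71 with FK506 (centred log2 ratios 1.64 and -1.42). NFATc2 summits lay more than 1 kb from the TSSs of all 9.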

How the data were processed

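ChIP-seq peak lists from the D1 line were analysed, 1 for NFATc2-V5 and 3 for H3K4me3. Per the labels, reads were mapped to mm9 with bowtie, and per the file headers the authors called peaks with MACS 1.4.2 in each library against its own input, at a p-value threshold of 1e-05, with at most 1 tag per position; the study's methods name another minor version of MACS. The deposited lists give for each peak its position, the raw count of ChIP tags, the −log10 of the p-value multiplied by 10, the fold enrichment (a ratio to local input background) and the FDR in percent.

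From the deposited counts, RPM (tags scaled to 1000000 ChIP tags) was computed with the header totals (16662316 ChIP tags for NT, 21289349 for curdlan, 19468498 for curdlan with FK506 and 14377535 for NFATc2). Intervals at 95% were exact Poisson for RPM and exact conditional binomial for ratios, and cover counting error only, since PCR reads are not independent molecules. Differences smaller than these intervals cannot be seen at this depth. H3K4me3 ratios were centred on the median of all genes. Genes were those of GENCODE vM1 (Ensembl 65) on the same build. The name Dusp8 is also given to a short gene inside the longer one, which was used. Scripts ran in Python 3.11.15 with pandas 2.3.3 and scipy 1.17.1, and were tested on simulated data.

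The 8 genes and all gene lists were chosen with earlier results of these data known. Genes outside the family were named when past 1.5-fold or with NFATc2 bound within 1 kb of a TSS (at most 4 per list), or as the 3 nearest to the member with the largest curdlan ratio. Of the 75 listed genes, 1 (Spry3) had no entry in the annotation, and 1 marker of the planned lists is not reported here. Alternatives covered p-value and FDR limits, TSS choice, windows, scaling and the fold for a call.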

Additional observations from a re-analysis of the deposited data

How the results depend on the processing

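No paired analysis was possible because each condition had 1 library. Keeping peaks with p of 1e-10 or less left 9 of the 23 NFATc2 summits, 7 of the 8 genes with a summit in the 100 kb window (Dusp10 lost its only one) and 1 gene (Dusp16) with a summit within 10 kb instead of 3, and a window of 30 kb left 11 summits. The 4 genes higher with curdlan became 2 (Dusp2 and Dusp8) with RPM per kb of peak and 2 with a fold of 2. On MACS fold enrichment 3 genes were higher with curdlan, Dusp2 (0.77), Dusp16 (0.73) and Dusp8 (0.59), so that Dusp16 gained and Dusp1 and Dusp5 lost the call. There 1 gene (Dusp4) was lower with curdlan and 1 (Dusp1, centred log2 ratio 0.84) was higher with FK506, instead of 0 and 0, and with RPM per kb 1 (Dusp2) was lower with FK506 instead of 0. The curdlan ratio changed sign for Dusp1 on fold enrichment (-0.051) and for Dusp5 with RPM per kb (-0.104), and for Dusp10, which was not called, on fold enrichment (0.009), with RPM per kb (0.44) and with TSS peaks alone (0.07). Fold enrichment depends on input depth, and its median log2 ratio over all genes was 0.73 for curdlan over NT, so the ratios were centred on it. For peak length, chosen after seeing the data, use of TSS peaks alone took the 1 shorter gene with curdlan to 0 and the 1 longer gene with FK506 to 0, and p of 1e-10 or less took the latter to 0 as well. Across the 8 genes, 50 of 55 alternative curdlan ratios and 47 of 55 alternative FK506 ratios kept their sign. These counts include scaling to the tags after the duplicate filter and to the tags inside peaks. A change of library total cancels when ratios are centred, so both repeated the main values by construction. The tags after the duplicate filter also equalled the header totals. Dusp4, with 49 to 60 tags per library, lost its peak in both stimulated libraries at p of 1e-10 or less.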
